A study of Mus musculus with 8 samples.

Results

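The Slc25 mitochondrial carrier family was examined in leukemic stem cells (LSCs) sorted from the bone marrow of mice with chronic myeloid leukemia (CML), with and without imatinib. Members were all rows of the gene count table whose symbol starts with Slc25a followed by a digit, which gave 44 of 15576 genes. Of these, 38 passed the filter on low counts, among 11937 genes tested. A RefSeq gene table listed 47 protein-coding Slc25a genes, and the other 3 were not analysed here. All mice were C57BL/6 animals carrying BCR-ABL and SCL-tTA, a model in which the stem cell leukemia (Scl) promoter drives the tetracycline-controlled activator and BCR-ABL is made once tetracycline is stopped. The CML group was untreated and the CML-TKI group received imatinib, a BCR-ABL tyrosine kinase inhibitor (TKI), at 400 mg/kg every other day for 4 weeks according to the sample labels, while the study's legend for the LSC transcriptomes gives a lower dose, so the dose of these libraries is uncertain. Bulk RNA-seq gave 4 libraries in each group. The study gives an age only for recipients of transplanted marrow, and the sources used here did not say whether these libraries came from primary or transplanted mice. The age of the mice was otherwise not given, nor whether each library came from a separate mouse, so p-values measure the spread between these libraries only.

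Slc25 proteins are nuclear-encoded transporters that are inserted, with few exceptions, into the inner mitochondrial membrane, where they exchange nucleotides, phosphate, carboxylates, amino acids, cofactors and metals between cytosol and matrix. Each is built from tandem repeats of a pair of membrane helices, and the first helix of a repeat usually ends in a short signature of proline, any residue, an acidic residue, any 2 residues and a basic residue. Blood cell precursors depend on several of them, above all on mitoferrin 1, which brings iron into mitochondria for heme.

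The signature was searched as proline, any residue, aspartate or glutamate, any 2 residues, lysine or arginine in the translation of the longest coding transcript of each of the 44 genes (GENCODE vM21, GRCm38). It was found 3 times in 25 members, 2 times in 11 members and once in 5 members. It was found in none of the 3 members Slc25a46, Slc25a51 and Slc25a53, which says only that these letters were not in the translation. Coding DNA around the first match is printed for 10 members on which the results below turn, because it is the feature that makes them 1 family and because it shows how far the closest pairs differ in bases. The stretches come from coding exons, run 5′ to 3′ on the sense strand, and carry the 18 bases of the signature in capitals.
Slc25a5: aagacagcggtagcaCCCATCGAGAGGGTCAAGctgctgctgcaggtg
Slc25a4: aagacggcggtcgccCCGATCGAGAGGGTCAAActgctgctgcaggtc
Slc25a24: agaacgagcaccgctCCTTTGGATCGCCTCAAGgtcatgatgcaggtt
Slc25a23: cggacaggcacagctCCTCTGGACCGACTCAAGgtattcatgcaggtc
Slc25a1: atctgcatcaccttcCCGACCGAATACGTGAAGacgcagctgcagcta
Slc25a11: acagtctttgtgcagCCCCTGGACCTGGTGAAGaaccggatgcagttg
Slc25a15: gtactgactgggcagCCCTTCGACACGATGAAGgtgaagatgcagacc
Slc25a20: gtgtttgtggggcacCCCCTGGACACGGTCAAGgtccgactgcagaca
Slc25a37: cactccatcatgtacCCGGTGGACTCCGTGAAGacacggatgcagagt
Slc25a28: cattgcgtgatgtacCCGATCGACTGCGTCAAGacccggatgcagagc
The genes lie at chrX:36795597-36798808 (Slc25a5), chr8:46207168-46211062 (Slc25a4), chr3:109123149-109168409 (Slc25a24), chr17:57043711-57059909 (Slc25a23), chr16:17925211-17928219 (Slc25a1), chr11:70644019-70647531 (Slc25a11), chr8:22375550-22398621 (Slc25a15), chr9:108662136-108684642 (Slc25a20), chr14:69241848-69285544 (Slc25a37) and chr19:43663801-43675006 (Slc25a28). Whole proteins of close pairs were 89.6% identical for Slc25a4 and Slc25a5, 77.3% for Slc25a12 and Slc25a13, 67.4% for Slc25a28 and Slc25a37 and 61.5% for Slc25a23 and Slc25a24. No pair compared shared a stretch of 50 identical transcript bases. Slc25a5 has a processed copy in the genome, so its reads may be split or shared with that copy.

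Total counts ranged from 4939644 to 8620101 in the CML libraries and from 1041552 to 5104268 in the CML-TKI libraries, and 3 counts, taken as the floor, stood for 0.409 to 0.580 CPM (counts scaled to library size, normalised between libraries by TMM) and 0.570 to 3.29 CPM. CML libraries are called 1, 2, 3 and 5 and CML-TKI libraries 1 to 4, and values below are given in that order. CML 1, 2 and 3 were closer to each other (chi-squared per degree of freedom 3.58 to 4.75) than any other pair of libraries (23.8 or more). Values with n = 4 count them as separate libraries. With CML 1 to 3 summed to 1 library, edgeR called 122 genes instead of 1220. The calls of marker and partner genes given below were not followed in that setting. The markers of the libraries differed between groups. The labels give a CD150-negative, CD48-positive gate for all libraries while the study defines LSCs as CD48-negative and CD150-positive, and Slamf1 (CD150) averaged 32.4 CPM in CML and 3.33 CPM in CML-TKI, Cd48 5.05 and 103 CPM. Of the 9 tested stem cell markers none was higher and 3 (33.3%) were lower in CML-TKI, where 3.93% of all genes tested were called lower. The test was the quasi-likelihood test of edgeR, with p adjusted by Benjamini-Hochberg at 0.05. DESeq2 called 4 of these markers lower (44.4% against 8.40%) and limma-voom all 9 (100% against 11.0%). Of the 9, 8 lay wholly below CML, where 13.1% of all genes did. Their summed level ran from 1548 to 1746 CPM in CML and from 67.6 to 455 CPM in CML-TKI. By edgeR all 7 monocyte and macrophage markers (100%) and 9 of 10 tested granulocyte markers (90%) were higher, where 6.29% of all genes were. Granulocyte sums were 152 to 254 CPM in CML and 1429, 7875, 7656 and 8369 CPM in CML-TKI 1 to 4. CML-TKI 1 thus lay nearest to CML on both lists. CML-TKI 3 had the fewest counts and stood apart by an erythroid sum of 68502 CPM, against 199 to 263 CPM in CML and 251, 399 and 1124 CPM in CML-TKI 1, 2 and 4. Its B cell markers summed to 249.9 CPM, against 16.9 to 23.2 CPM in every other library, and its T and NK cell markers to 60.3 CPM, against 3.23 to 47.6 CPM in the other CML-TKI libraries and at most 0.386 CPM in CML. Megakaryocyte markers summed to 1471 to 1773 CPM in CML and 48.7 to 608 CPM in CML-TKI. The part of these cell markers in the differences below was not tested, and in bulk libraries fewer cells of a type and less RNA per cell cannot be told apart.

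The summed level of the carrier family overlapped between CML and CML-TKI LSCs, and no member passed the test of edgeR. The 44 members summed to between 2005 and 2495 CPM in the CML libraries and to 2178, 2411, 3269 and 2194 CPM in CML-TKI 1 to 4. Leaving out Slc25a37, which made up 30.7% of the family in CML-TKI 3 and 2.58% to 4.43% of it elsewhere, the sums were 1932 to 2429 CPM and 2097 to 2321 CPM and overlapped. Of the 38 members tested, 0 were called higher and 0 lower by edgeR's quasi-likelihood test, where 6.29% of all genes tested were called higher and 3.93% lower. With p under 0.05 before adjustment came 5 members (Slc25a15, Slc25a11, Slc25a1, Slc25a37 and Slc25a36), or 13.2%, against 25.7% of all genes tested. DESeq2 called 3 members (7.89%) at an adjusted p under 0.05, all lower, where it called 8.40% of all genes lower and 9.67% higher. It gave no adjusted p for Slc25a37, which could therefore not be called. Limma-voom called 4 members (10.5%), again all lower, where 11.0% of all genes were called lower and 10.5% higher. By direction alone 18 members were higher and 20 lower, with a median log2 fold change of -0.04 beside -0.000258 for all genes tested. The median size of the change was 0.46 on the log2 scale against 0.52 for all genes, and 7 members (18.4%) differed by more than 2-fold against 25.8% of all genes.

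**Figure D1:**
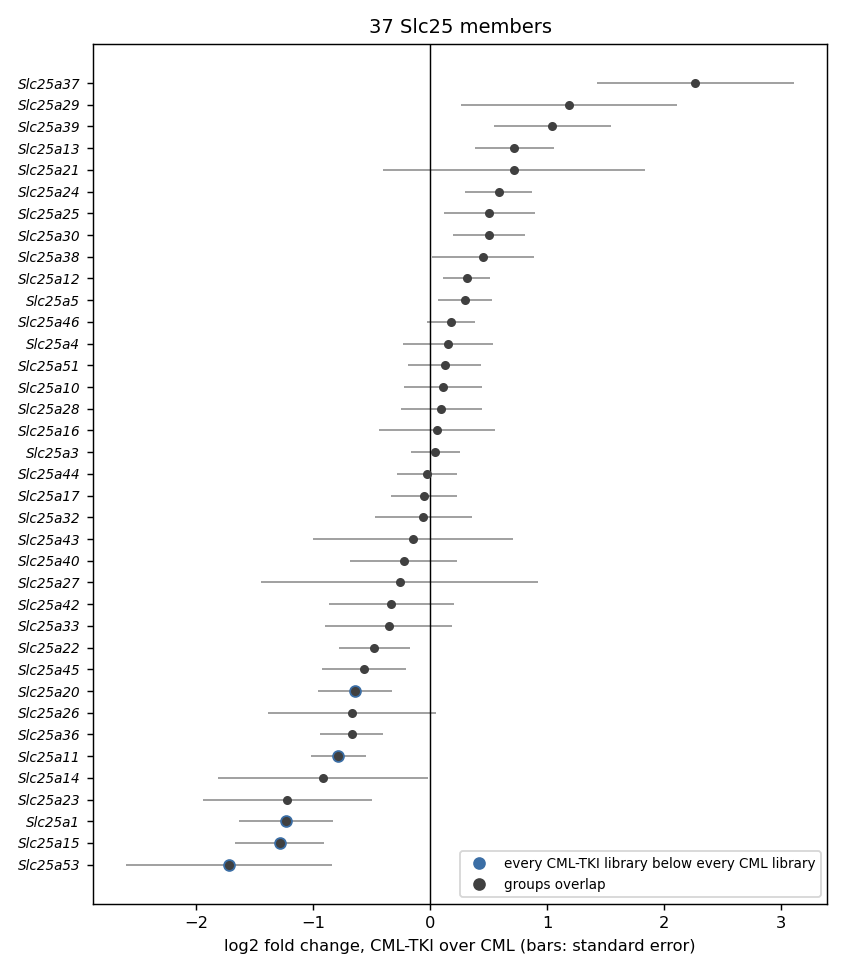
Log2 fold change of CML-TKI over CML (horizontal axis) for 37 of the 38 Slc25 members tested, ordered by size, where points are edgeR estimates and bars their standard errors. Blue rings mark the 5 members whose CML-TKI libraries all lay below every CML library, and the estimates run from -1.72 for Slc25a53 to 2.27 for Slc25a37.

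The groups did not overlap for 5 of the 38 members, all lower in CML-TKI, a share of 13.2% where 13.1% of all genes tested lay wholly below CML. No member lay wholly above CML, where 10.3% of all genes did. The 5 were the ornithine carrier Slc25a15, the oxoglutarate carrier Slc25a11, the citrate carrier Slc25a1, the carnitine/acylcarnitine carrier Slc25a20 and the uncharacterised Slc25a53. By edgeR none of the 5 passed the adjusted threshold, while DESeq2 called Slc25a1, Slc25a11 and Slc25a15 lower and limma-voom Slc25a1, Slc25a15 and Slc25a53.

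**Figure D2:**
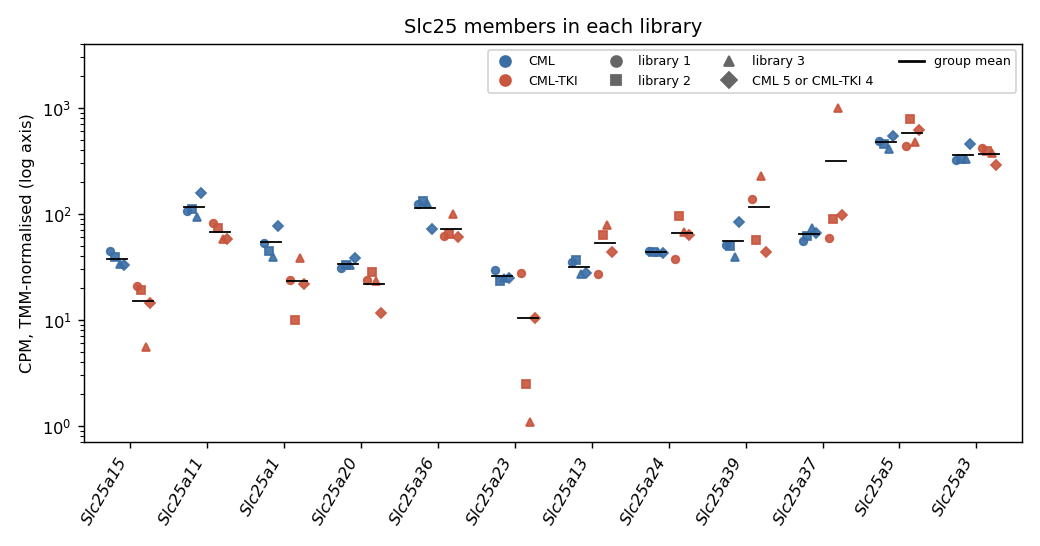
Level of 12 Slc25 members in each library, in TMM-normalised CPM on a log axis, with CML in blue, CML-TKI in red, 1 symbol shape per library and a black line at the group mean. Slc25a15, Slc25a11, Slc25a1 and Slc25a20 lie lower in every CML-TKI library, while the high mean of Slc25a37 in CML-TKI comes from the single value of 1003 CPM in CML-TKI 3.

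Among carriers of adenine nucleotides, phosphate and coenzyme A, 6 of 9 tested members were higher and 3 lower, with a median log2 fold change of 0.06, and no member was called. The ADP/ATP carrier Slc25a5, which exchanges cytosolic ADP for matrix ATP, was the most abundant member with 481, 453, 408 and 541 CPM in CML and 438, 788, 471 and 613 CPM in CML-TKI (471 ± 55.8 and 577 ± 160, SD, n = 4 each). Its groups overlapped and its log2 fold change was 0.29 ± 0.23 (SE, adjusted p = 0.467), and 0.10 without CML-TKI 2. The phosphate carrier Slc25a3, which supplies the phosphate for ATP synthesis, read 323, 330, 327 and 453 CPM in CML and 422, 392, 373 and 291 CPM in CML-TKI. Its fold change of 0.04 ± 0.21 on the log2 scale was smaller than its standard error (adjusted p = 0.923). Per kilobase of transcript these 2 genes led the family in both groups, with mean levels of 423 and 271 CPM per kb over all libraries, and the next stood at 68.5 CPM per kb in CML (Slc25a11) and 74.8 CPM per kb in CML-TKI (Slc25a37, with 240.3 CPM per kb in CML-TKI 3). Together they supplied 36.6% to 39.9% of the family's CPM in the CML libraries and 25.8% to 48.9% in the CML-TKI libraries. Slc25a4, the ADP/ATP carrier known from heart and muscle, read 57.7, 42.8, 48.1 and 67.4 CPM in CML and 106, 55.8, 51.5 and 26.3 CPM in CML-TKI (log2 fold change 0.15 ± 0.38, adjusted p = 0.846). Per kilobase it made up 5.74% to 7.42% of the Slc25a4 and Slc25a5 pair in CML, and 13.5%, 4.36%, 6.58% and 2.69% in CML-TKI 1 to 4. The sign for Slc25a4 changed to -0.30 without CML-TKI 1, and that for Slc25a3 to -0.03.

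The calcium-regulated ATP-Mg/phosphate carriers had estimates of both signs, none of them called by edgeR. Slc25a24 was tightly held in CML at 44.8, 43.4, 44.1 and 42.5 CPM and read 37.2, 95.5, 66.9 and 63.0 CPM in CML-TKI. All CML-TKI libraries but CML-TKI 1 were above CML, for a log2 fold change of 0.58 ± 0.29 (adjusted p = 0.233), which was 0.78 without CML-TKI 1 (adjusted p = 0.0409) and 0.33 without CML-TKI 2 (adjusted p = 0.493). Slc25a23 read 29.6, 23.4, 24.9 and 25.02 CPM in CML and 27.7, 2.48, 1.10 and 10.4 CPM in CML-TKI, of which the value in CML-TKI 3 rested on 1 count and lay under that library's floor. Here CML-TKI 1 lay within the CML range while the other 3 lay below it, and the log2 fold change of -1.22 ± 0.72 (adjusted p = 0.323) became -2.29 without CML-TKI 1 (adjusted p = 0.0238). Per kilobase, Slc25a23 held 35.4% to 40.2% of the Slc25a23 and Slc25a24 pair in CML, 43.2% in CML-TKI 1 and 2.58%, 1.65% and 14.4% in CML-TKI 2 to 4. The third carrier of this kind, Slc25a25, read 17.6, 18.7, 21.3 and 27.2 CPM in CML and 31.0, 40.9, 11.0 and 35.6 CPM in CML-TKI (log2 fold change 0.50 ± 0.39, adjusted p = 0.458, which was 0.77 without CML-TKI 3 and 0.32 without CML-TKI 2). In Slc25a25 CML-TKI 3 was the lowest library and the other CML-TKI libraries exceeded every CML library. The coenzyme A carriers Slc25a16 and Slc25a42 and the peroxisomal Slc25a17 had log2 fold changes of 0.06, -0.33 and -0.05. Slc25a16 had 4 counts in CML-TKI 3 (4.38 CPM), while CML-TKI 1, 2 and 4 read 27.9, 40.0 and 32.8 CPM and CML ran from 23.2 to 31.8 CPM.

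Carboxylate carriers link the citric acid cycle to the cytosol. Of 6 tested, 4 were higher and 2 lower, and the 2 lower ones are among the 5 members without overlap, whose share was that of all genes (13.1%). Slc25a11, which returns oxoglutarate to the cytosol in exchange for malate, read 105, 112, 93.3 and 158 CPM in CML and 82.1, 73.1, 58.1 and 57.8 CPM in CML-TKI (117 ± 28.2 and 67.8 ± 11.9, SD, n = 4 each). The highest CML-TKI library lay below the lowest CML library, with a log2 fold change of -0.78 ± 0.24 (adjusted p = 0.0636). Slc25a1, which exports citrate for lipid synthesis, read 53.5, 44.4, 39.4 and 77.4 CPM in CML and 23.6, 9.92, 38.4 and 21.9 CPM in CML-TKI. CML-TKI 3 lay just under CML 3 while the other CML-TKI libraries were clearly lower. The log2 fold change of Slc25a1 was -1.23 ± 0.40 (adjusted p = 0.0838), and -1.52 without CML-TKI 3 (adjusted p = 0.0417).

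Both aspartate/glutamate carriers, which work with Slc25a11 in the malate-aspartate shuttle, had positive estimates. Slc25a13 (citrin) read 35.1, 36.9, 27.2 and 27.6 CPM in CML and 26.8, 62.6, 77.8 and 43.7 CPM in CML-TKI. Only CML-TKI 1 was as low as CML, and the log2 fold change of 0.72 ± 0.34 (adjusted p = 0.215) was 0.93 without that library (adjusted p = 0.0410). Slc25a12 (aralar) read 67.4, 73.2, 58.2 and 62.7 CPM in CML and 73.5, 82.1, 71.2 and 96.8 CPM in CML-TKI, so that 3 of 4 CML-TKI libraries were above every CML library (log2 fold change 0.31 ± 0.20, adjusted p = 0.362). Per kilobase, Slc25a12 was 48.5% to 52.7% of the pair in CML and 57.4%, 39.2%, 31.0% and 52.1% in CML-TKI 1 to 4. Of the shuttle enzymes listed with them, 6 of 6 tested had positive estimates by edgeR, among them 0.50 for Got1 and 0.49 for Mdh1. By edgeR none was called or lay at an unadjusted p under 0.05, nor was any called by DESeq2 or limma-voom. The signs were not uniform over tools, since Gpd2, at 0.01 by edgeR, was -2.5e-05 by DESeq2 and -0.18 by limma-voom. Got1 was at 0.007 by limma-voom. The dicarboxylate carrier Slc25a10 and the oxoadipate carrier Slc25a21 had log2 fold changes of 0.11 and 0.72, the latter from 0 to 13.5 CPM within CML-TKI.

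Amino acid and acylcarnitine carriers had a median log2 fold change of -0.25, with 4 of 6 tested lower. Slc25a15 moves ornithine and citrulline across the inner membrane for the urea cycle and arginine metabolism. It read 44.1, 39.4, 33.8 and 32.6 CPM in CML and 20.9, 18.9, 5.48 and 14.3 CPM in CML-TKI (37.5 ± 5.33 and 14.9 ± 6.86, SD, n = 4 each). Each CML-TKI library lay well below the lowest CML library, and with a log2 fold change of -1.29 ± 0.38 (adjusted p = 0.0585) Slc25a15 had the smallest p of the family. Without CML-TKI 1 it passed the threshold at -1.47 (adjusted p = 0.0261) and without CML-TKI 3 at -1.04 (adjusted p = 0.0392). Slc25a20 imports acylcarnitines for fatty acid oxidation. It read 30.9, 32.6, 32.7 and 38.6 CPM in CML and 23.7, 28.2, 23.0 and 11.7 CPM in CML-TKI. The gap between groups was narrow, and the log2 fold change was -0.64 ± 0.32 (adjusted p = 0.237). Among enzymes of the carnitine shuttle, carnitine acetyltransferase Crat rose from 19.5, 20.3, 22.2 and 24.9 CPM in CML to 40.3, 37.8, 82.2 and 58.0 CPM in CML-TKI (log2 fold change 1.32 ± 0.30, adjusted p = 0.0240), while Cpt1a and Cpt2, which make and unload acylcarnitines, had log2 fold changes of -0.56 and 0.02 and were not called.

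The glutamate carrier Slc25a22 read 27.5, 21.8, 20.3 and 26.5 CPM in CML and 16.1, 12.7, 19.7 and 20.8 CPM in CML-TKI, where CML-TKI 4 reached above the lowest CML value (log2 fold change -0.48 ± 0.30, adjusted p = 0.358). Its near relative Slc25a18 did not pass the filter and read 0 to 1.36 CPM in CML and 0.950, 0.310, 0 and 5.46 CPM in CML-TKI. Slc25a29, a carrier of basic amino acids, had a log2 fold change of 1.18 ± 0.92 from values of 1.16 to 4.81 CPM in CML and 0 to 15.5 CPM in CML-TKI. Slc25a44, which carries branched-chain amino acids, was level at -0.03 ± 0.26.

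Of 8 tested carriers of cofactors, glutathione and pyrimidine nucleotides, 6 were lower and 2 higher, with a median log2 fold change of -0.27. The pyrimidine nucleotide carrier Slc25a36 read 123, 133, 126 and 71.4 CPM in CML and 61.7, 65.1, 99.7 and 60.6 CPM in CML-TKI. CML 5 lay among the CML-TKI libraries and CML-TKI 3 above CML 5, and the log2 fold change was -0.67 ± 0.27 (adjusted p = 0.146). The second pyrimidine carrier, Slc25a33, was far scarcer at 8.72, 8.69, 5.22 and 8.52 CPM in CML and 7.03, 4.65, 2.19 and 9.63 CPM in CML-TKI (-0.36 ± 0.54, adjusted p = 0.732, with -0.12 without CML-TKI 3 and -0.68 without CML-TKI 4), and its value in CML-TKI 3 lay under the floor.

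The glutathione carrier Slc25a39 read 50.3, 49.2, 39.2 and 84.3 CPM in CML and 139, 56.4, 227 and 43.7 CPM in CML-TKI. Only CML-TKI 1 and CML-TKI 3 lay above the CML range, and the log2 fold change was 1.04 ± 0.50 (adjusted p = 0.222), which was 0.53 without CML-TKI 3 and -0.16 without both of these libraries. Its relative Slc25a40 read 9.94, 9.07, 11.4 and 8.94 CPM in CML and 13.3, 6.51, 4.38 and 8.59 CPM in CML-TKI (-0.23 ± 0.46, adjusted p = 0.800, with -0.56 without CML-TKI 1 and -0.04 without CML-TKI 3), and Slc25a39 was 85.0% to 94.0% of the pair per kilobase in CML and 89.4% to 98.8% in CML-TKI. Slc25a51, which imports NAD into mitochondria, was the third most abundant member by mean CPM over all libraries (behind Slc25a37 in CML-TKI) with 182, 187, 183 and 201 in CML and 123, 137, 336 and 226 CPM in CML-TKI. CML-TKI 1 and 2 lay below every CML library and CML-TKI 3 and 4 above, so the log2 fold change of 0.12 ± 0.31 (adjusted p = 0.849) joins opposite differences, and it was -0.20 without CML-TKI 3. The carriers of S-adenosylmethionine (Slc25a26) and folate or FAD (Slc25a32) had log2 fold changes of -0.67 and -0.06. Mthfd2, an enzyme of the mitochondrial folate pathway that Slc25a32 feeds, rose from 15.4, 18.3, 13.9 and 15.8 CPM in CML to 86.0, 85.8, 30.7 and 52.8 CPM in CML-TKI (log2 fold change 2.02 ± 0.35, adjusted p = 0.00662). It was the one gene called of 6 in its list (16.7%, where edgeR called 6.29% of all genes higher).

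The mitoferrins showed the largest single value of the family. Slc25a37 (mitoferrin 1), the iron importer of erythroid precursors, read 55.8, 62.3, 72.9 and 65.6 CPM in CML and 58.9, 90.2, 1003 and 97.3 CPM in CML-TKI (64.2 ± 7.08 and 312 ± 461, SD, n = 4 each). CML-TKI 1 lay inside the CML range, CML-TKI 2 and 4 somewhat above it and CML-TKI 3 far above all others. The log2 fold change of 2.27 ± 0.84 (adjusted p = 0.122) was 0.37 without CML-TKI 3 (adjusted p = 0.342) and 2.61 without CML-TKI 1 (adjusted p = 0.0379). Slc25a28 (mitoferrin 2), the form used outside the erythroid line, read 23.4, 22.2, 17.4 and 32.4 CPM in CML and 27.9, 30.7, 13.2 and 28.9 CPM in CML-TKI. There CML-TKI 3 was the lowest library, and the log2 fold change was 0.09 ± 0.34 (adjusted p = 0.897). It was 0.30 without CML-TKI 3 and -0.04 without CML 3. Per kilobase, Slc25a28 was 39.4% to 57.4% of the mitoferrin pair in CML, 56.3%, 48.1% and 44.7% in CML-TKI 1, 2 and 4, and 3.44% in CML-TKI 3.

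Some other genes of iron and heme were also highest in that library. The glycine carrier Slc25a38, which serves the first step of heme synthesis, read 15.3, 13.7, 14.1 and 19.5 CPM in CML and 10.6, 15.2, 40.6 and 21.3 CPM in CML-TKI (log2 fold change 0.45 ± 0.43, adjusted p = 0.564). Slc25a37, Slc25a38, Slc25a39 and Slc25a51 each had their highest value in CML-TKI 3. They were among 7 of the 38 tested members that were highest there, while 13 members were lowest there. CML-TKI 2 also had 7 members highest, and 8 lowest. The erythroid heme enzymes Alas2 and Fech stood at 1063 and 630 CPM there, against 2.85 to 10.7 and 59.5 to 93.4 CPM in the other CML-TKI libraries. Others of the heme list did not peak there, since Urod was lowest in CML-TKI 3 at 5.48 CPM, against 37.0 to 53.3 CPM in CML, and Cpox and Abcb10 were highest in CML-TKI 4 at 114 and 181 CPM. Hba-a1 and Hbb-b1, globin genes, reached 19625 and 22091 CPM in CML-TKI 3 and at most 109.8 and 119 CPM elsewhere. Within the same erythroid list the precursor genes Klf1, Epor and Car1 were no higher in CML-TKI 3 than in CML, at 5.48, 1.10 and 4.38 CPM. The part of these transcripts in the level of the carriers was not tested. Of 11 heme synthesis enzymes and transporters, 9 had positive estimates and edgeR called 1 (9.09%), where it called 6.29% of all genes higher. It was the housekeeping enzyme Alas1. DESeq2 and limma-voom called 2 genes of this list each (18.2%), Alas1 among them, where they called 9.67% and 10.5% of all genes higher. DESeq2 gave no adjusted p for Alas2 and Fech, which could therefore not be called. Alas1 was at 28.9 ± 6.96 CPM in CML and at 71.2, 278, 355 and 261 CPM in CML-TKI 1 to 4 (log2 fold change 3.06 ± 0.45, adjusted p = 0.00319).

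**Figure D3:**
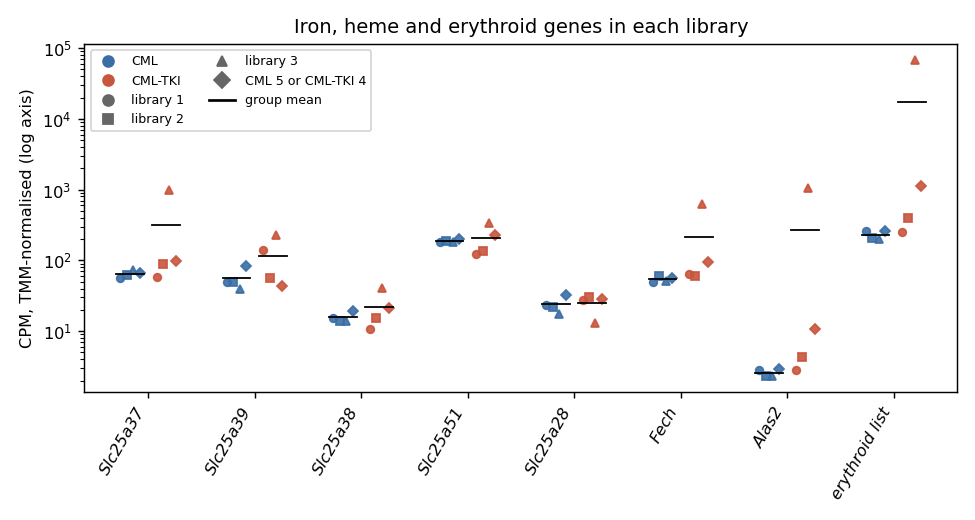
Level of iron, heme, glutathione and NAD carriers, of the heme enzymes Fech and Alas2 and of the summed erythroid marker list in each library, in TMM-normalised CPM on a log axis, with CML in blue, CML-TKI in red and a black line at the group mean. CML-TKI 3 is the highest library for Slc25a37, Slc25a39, Slc25a38, Slc25a51, Fech, Alas2 and the list, and the lowest for Slc25a28.

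The uncoupling-protein-like Slc25a30, Slc25a14 and Slc25a27 had log2 fold changes of 0.50, -0.92 and -0.26, with none called by edgeR, DESeq2 or limma-voom over all libraries. Slc25a27 read 7.90, 7.91, 9.47 and 1.92 CPM in CML and 16.5, 0, 5.48 and 0.260 CPM in CML-TKI, where CML-TKI 1 was the highest library of all. It was called lower without CML-TKI 1 and CML-TKI 3. Slc25a53, a little-studied X-linked member, read 5.45, 5.98, 6.38 and 5.91 CPM in CML and 4.75, 1.24, 0 and 0.260 CPM in CML-TKI. All CML-TKI libraries lay below CML, but CML-TKI 1 only just, and those of CML-TKI 3 and CML-TKI 4 were at or under the floor. The log2 fold change of -1.72 ± 0.88 (adjusted p = 0.255) was -3.24 without CML-TKI 1 (adjusted p = 0.0207). Slc25a45 and Slc25a46, both of moderate level at 65.7 and 65.4 CPM on average, had log2 fold changes of -0.57 and 0.18, and the scarce Slc25a43 one of -0.15. The 6 members that did not pass the filter, Slc25a2, Slc25a18, Slc25a34, Slc25a35, Slc25a41 and Slc25a47, had between 4 and 60 counts over all libraries. Slc25a41 had no count in any CML-TKI library and at most 2 in a CML library, so it was not detectable at this depth.

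Leaving out CML-TKI 1 changed more calls than any other single omission. Without CML-TKI 1, 2504 genes (20.6% of those tested) were called, and with them 3 members higher (Slc25a13, Slc25a24 and Slc25a37) and 4 lower (Slc25a11, Slc25a15, Slc25a23 and Slc25a53). These are 7.89% and 10.5% of the members, where 9.64% and 11.0% of all genes were called higher and lower. Without CML-TKI 3, the calls were 1198 genes and 2 lower members, Slc25a1 and Slc25a15 (5.13%, where 4.17% of all genes were called lower and 5.62% higher). With neither library, Slc25a24 was called higher and Slc25a1, Slc25a15, Slc25a23, Slc25a27 and Slc25a53 lower, which is 2.56% and 12.8% of the members where 10.5% and 15.7% of all genes were called higher and lower. Slc25a15 was called in all 3 of these settings. Of the 38 tested members, 12 lay inside the CML range in CML-TKI 1, 8 in CML-TKI 2, 8 in CML-TKI 3 and 10 in CML-TKI 4.

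**Figure D4:**
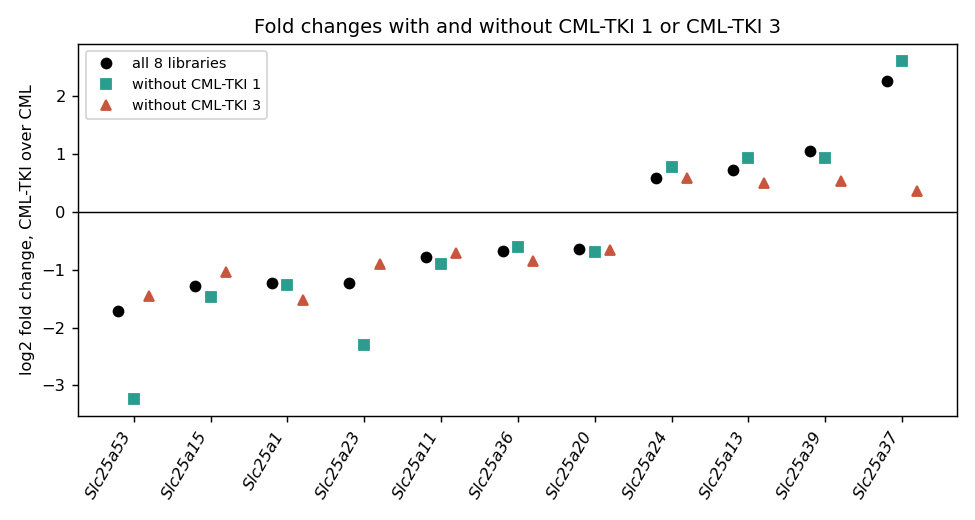
Log2 fold change of CML-TKI over CML (vertical axis) for 11 members with all libraries (black circles), without CML-TKI 1 (green squares) and without CML-TKI 3 (red triangles). Slc25a37 falls from 2.27 to 0.37 without CML-TKI 3, and Slc25a23 and Slc25a53 reach -2.29 and -3.24 without CML-TKI 1.

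Genes that work beside the carriers were read from 10 lists of related proteins, in which 71 genes were tested. Of these, 6 were called higher and 0 lower by edgeR, with a median log2 fold change of 0.25. The share called higher was 8.45% against 6.29% of all genes, and 17 of the 71 (23.9%) had an unadjusted p under 0.05 against 25.7% of all genes. DESeq2 called 9 higher (12.7%, against 9.67% of all genes) and 2 lower (2.82% against 8.40%), and limma-voom 12 higher (16.9% against 10.5%) and 1 lower (1.41% against 11.0%). Besides Crat, Mthfd2 and Alas1 these were Sfxn5, Mcub and Cs. The sideroflexin Sfxn5, an inner membrane transporter of another family, read 3.81, 4.44, 2.90 and 5.77 CPM in CML and 7.98, 22.9, 17.5 and 12.7 CPM in CML-TKI (log2 fold change 1.84 ± 0.49, adjusted p = 0.0435). Mcub, the inhibitory subunit of the mitochondrial calcium uniporter, was at 0 to 0.772 CPM in CML and rose to 13.9, 26.7, 32.9 and 17.4 CPM in CML-TKI (adjusted p = 0.00325), whereas the pore subunit Mcu, at 18.6 ± 1.25 and 31.6 ± 7.74 CPM, lay wholly above CML without being called (log2 fold change 0.76 ± 0.28, adjusted p = 0.122). Mcur1, a regulator of the uniporter, lay wholly below CML at 60.8 ± 7.36 and 27.7 ± 11.8 CPM (log2 fold change -1.11 ± 0.33, adjusted p = 0.0585 by edgeR) and was called lower by DESeq2 (adjusted p = 0.00744) and limma-voom (adjusted p = 0.0141). Citrate synthase Cs, a common measure of mitochondrial content, rose from 202, 193, 197 and 210.1 CPM in CML to 374, 325, 292 and 272 CPM in CML-TKI (log2 fold change 0.66 ± 0.18, adjusted p = 0.0498). It was the one gene of 11 (9.09%, against 6.29% of all genes called higher) in the mitochondrial content list that edgeR called, and the list had a median of 0.21. In the same list Tomm20, a receptor of the outer membrane import pore, lay wholly below CML at 113 ± 3.15 and 77.6 ± 7.58 CPM (log2 fold change -0.54 ± 0.18, adjusted p = 0.0882) and was called lower by DESeq2 (adjusted p = 0.0123). DESeq2 called 2 genes of this list higher (18.2%, against 9.67% of all genes) and 1 lower (9.09% against 8.40%), and limma-voom 2 higher (18.2% against 10.5%). None of the 13 genes of the TIM22 pathway, by which carriers are inserted into the inner membrane, was called by edgeR, and 1 had an unadjusted p under 0.05 (7.69%, against 25.7% of all genes). DESeq2 called 1 of them lower (7.69% against 8.40%) and limma-voom none, and their median was 0.11. Mtch2, a family protein of the outer membrane that inserts other proteins there, read 49.3, 52.7, 49.5 and 50.2 CPM in CML and 73.9, 79.6, 89.9 and 73.1 CPM in CML-TKI. It lay wholly above CML in every library and was not called by edgeR (log2 fold change 0.65 ± 0.19, adjusted p = 0.0571), but was by DESeq2 (adjusted p = 0.00674) and limma-voom (adjusted p = 0.0353). Ucp2, the uncoupling protein of blood cells, read 197, 204, 198 and 302 CPM in CML and 155, 429, 390.2 and 434 CPM in CML-TKI, where CML-TKI 1 was the lowest library of all (log2 fold change 0.64 ± 0.33, adjusted p = 0.251 by edgeR, 0.219 by DESeq2 and 0.0138 by limma-voom). The subunits of the pyruvate carrier, Mpc1 and Mpc2, had log2 fold changes of 0.73 and 0.50 and were not called by edgeR or DESeq2, while limma-voom called Mpc1 higher (adjusted p = 0.0325).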

How the data were processed

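Sorted cells were lysed for column-purified RNA and sequenced as Nextera XT libraries. The deposited values are estimated counts of each gene, not normalised, which the authors obtained by STAR alignment to mm10 and RefSeq quantification in Partek Flow (STAR 2.6.1d and Partek 8.0 in the submitters' processing notes). The estimated counts were rounded, normalised by TMM, filtered with filterByExpr (minimum count 10, minimum total 15) and tested with edgeR 4.0.16 in R 4.3.3 (quasi-likelihood test, robust, 11937 genes, Benjamini-Hochberg adjustment over all of them, threshold 0.05). The code was tested on simulated data. Standard errors were derived from the log2 fold change and its F statistic. Strand was not stated, so overlapping and antisense genes cannot be told apart. Total counts were 1041552 to 8620101 per library, and floors of 3 counts cover counting error only. The column named CML 5 was taken as the fourth CML library, since no other was left. The members and lists were chosen with earlier results of these data known. By rule, every member was counted (1 member and some listed genes are not reported singly here), and values per library were given for members called or without overlap between groups, the 6 most abundant and those of close pairs, and for partner genes past the threshold. For Alas1, Mcub and Slc25a18 in CML a mean or a range was given instead. Values per library of Slc25a16, Slc25a26, Slc25a27, Slc25a32 and Slc25a38 were added after they were seen. Mcu, Mtch2, Ucp2 and the other uncalled partner and marker genes were also named after their values were seen. Lengths and coding stretches came from GENCODE vM21 (GRCm38), and coordinates from the RefSeq gene table. Alternatives were DESeq2 1.42.0, limma-voom (limma 3.58.1) with quality weights, other normalizations and filters, a replicate block and left-out libraries. The K562, ChIP-seq, protein and metabolite experiments were not used here.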

Additional observations from a re-analysis of the deposited data

Results flagged for a closer look

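In 6 of 76 sets of 4 libraries (38 members in each group), the highest or lowest library lay farther from the others than Dixon's 95% limit, which chance passes in about 1 of 20 sets (3.8 of 76). Of these, 3 fell on CML-TKI 3, the library with the fewest counts and the high erythroid sum. Slc25a37 read 1003 CPM there, above the other CML-TKI libraries, Slc25a36 read 99.7 CPM, also the highest, and Slc25a28 read 13.2 CPM, the lowest. In CML 5 the level of Slc25a3 was 453 CPM, above the other CML libraries, and that of Slc25a36 was 71.4 CPM, below them. In CML 3 the level of Slc25a33 was 5.22 CPM, the lowest of its group.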

How the results depend on the processing

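No member was called, as in the edgeR fit reported, with RLE size factors, total counts, TMM without Rn45s, no filter on low counts or a minimum count of 30, and 1037 to 1237 genes were called there. DESeq2 called 2157 genes and 3 members lower (Slc25a1, Slc25a11 and Slc25a15), limma-voom 2563 genes and 4 members lower (Slc25a1, Slc25a15, Slc25a36 and Slc25a53), and a threshold of 0.10 gave 1957 genes and 3 members lower (Slc25a1, Slc25a11 and Slc25a15). Leaving out 1 library in turn gave 505 to 2504 genes, 0 to 3 members higher and 0 to 4 members lower. Chosen after seeing the data, CML 1 to 3 summed to 1 library (biological coefficient of variation 11.0%, against 28.04% over all CML and 69.2% over CML-TKI libraries) gave 122 genes and no member, and leaving out CML-TKI 1 and CML-TKI 3 gave 3262 genes, 1 member higher and 5 lower. CML 1 to 3 differed from each other by a chi-squared per degree of freedom of 3.58 to 4.75 and from CML 5 by 53.7 to 57.8. Whether they are repeats of 1 sample was not tested. Libraries 1 to 3 share numbers between groups but their deviations correlated at only -0.04, 0.10 and 0.09, so the numbers were not taken as pairs. With a replicate block on these 6 libraries 193 genes were called, against 589 unpaired, and no member either way. Among the members chosen by the rule for values per library, signs turned in 5, and the signs of the other members were not followed. Slc25a28 was -0.10 with CML 1 to 3 summed and ran from -0.040 to 0.30 over left-out libraries. Slc25a3 was -0.10 summed, -0.073 without CML-TKI 1 and 3, and -0.031 to 0.17 over left-out libraries. Slc25a4 was -0.14 with limma-voom, -0.41 without CML-TKI 1 and 3, and -0.30 to 0.40 over left-out libraries. Slc25a51 was -0.040 with the replicate block, -0.053 without CML-TKI 1 and 3, and -0.20 to 0.30 over left-out libraries. Slc25a39 was -0.16 without CML-TKI 1 and 3. The median of all genes moved to -0.11 with limma-voom and -0.13 with the block. The cause of these shifts was not tested. Members under about 10 CPM rest on few counts in CML-TKI 3, where 14 of 44 members had 3 counts or fewer.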
